A study of Mus musculus with 4 samples.

Results

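Transcriptional output of 10 genes of cytokine signalling was compared between double positive (DP) thymocytes with and without Tox4. They are the receptor chain genes Il7r, Il2ra, Il4ra, Il6ra, Il21r, Ifngr1 and Il2rg and the suppressor of cytokine signalling (SOCS) family genes Socs1, Socs3 and Cish, chosen by name as 10 of the 24984 genes in the deposited count table. DP thymocytes carry both CD4 and CD8 and are the most numerous cells of the thymus. The assay was TTchem-seq, in which RNA made during a short 4-thiouridine (4sU) pulse is purified and sequenced, so that fragments over a gene, introns included, are meant to reflect its transcription rather than its stored mRNA. The sources differ on the libraries: the methods describe removal of ribosomal RNA, and the labels describe capture of polyadenylated RNA, which would favour finished mRNA. Which was used was not tested, and output below means the count over the gene span. There were 2 wild-type (WT) libraries, with the genotype Tox4;F/F, and 2 conditional knockout (cKO) libraries, with the genotype Tox4;F/F;Lck+.

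Both genotypes carried the loxP-flanked Tox4 allele, and they differed in a Cre transgene that the study describes as driven by the proximal Lck promoter, which acts from the double negative (DN) stage onwards and deletes exons 4 to 6. The WT libraries therefore stand for floxed mice without Cre, and no group had Cre without the floxed allele. The mice of the study were 6 to 8 weeks old on a C57BL/6 background, and nothing in the labels says which mouse gave which library, so p-values measure the spread between libraries. Each library held between 38429786 and 48690591 fragments. Output of Tox4 was lower in the cKO libraries (59.3 and 57.2 CPM, against 74.0 and 70.3 CPM in WT; CPM is a count relative to the total of its library), which is -0.31 on the log2 scale for a count that spans the whole gene (DESeq2 adjusted p = 0.0453, edgeR adjusted p = 0.153). Xist, the noncoding RNA of the inactive X chromosome, set WT replicate 1 apart, with 172 CPM there and no more than 2.36 CPM elsewhere. Defining markers of thymic stromal and erythroid cells were nearly absent, with 0 of 8 and 0 of 5 genes at a mean of at least 1 CPM (highest means 0.794 CPM for Epcam and 0.208 CPM for Col1a1, and 0.116 CPM for Hba-a1 and 0.0443 CPM for Hbb-b1).

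Cytokines bind receptor chains at the cell surface, Janus kinases (JAKs) held by the chains phosphorylate STAT transcription factors, and SOCS proteins, themselves encoded by STAT target genes, shut the signal off. In the thymus, IL-7 receptor signalling sustains DN cells, is low in DP cells while they await selection, and returns in the mature single positive (SP) cells. High SOCS1 is known to keep DP cells insensitive to cytokines until they are positively selected. Il2rg encodes the common gamma chain, which the receptors for IL-2, IL-4, IL-7 and IL-21 share.

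Output of Ifngr1 and Il7r was higher in cKO, by 1.45-fold (95% interval of the log2 fold change 0.37 to 0.70) and 1.28-fold (0.16 to 0.55). Output of Il4ra and Il21r, neighbouring genes on chromosome 7, was lower, at 0.736 (-0.60 to -0.29 on the log2 scale) and 0.609 (-0.92 to -0.51) of the WT level. Calls required a DESeq2 adjusted p under 0.05, a change by 1.2-fold or more, and 1 CPM or more on average. By these criteria 2 of the 10 genes were called higher and 2 lower, against 2.14% higher and 1.57% lower of the 11625 genes with a mean of at least 1 CPM. All 4 were receptor genes, and 0 of the 3 SOCS genes were called, with 0 at an unadjusted p under 0.05 in DESeq2 or edgeR. With edgeR, Ifngr1 was called higher and Il21r lower (background 0.413% and 0.086%), and with limma voom Ifngr1 higher and Il4ra and Il21r lower (background 0.43% and 0.0946%). The 10 log2 fold changes had a median of -0.13, beside 0.00 over all genes tested. All 10 passed the minimum of 1 CPM. In bulk RNA a change in the number of cells of a type cannot be told apart from a change in RNA per cell.

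**Figure D1:**
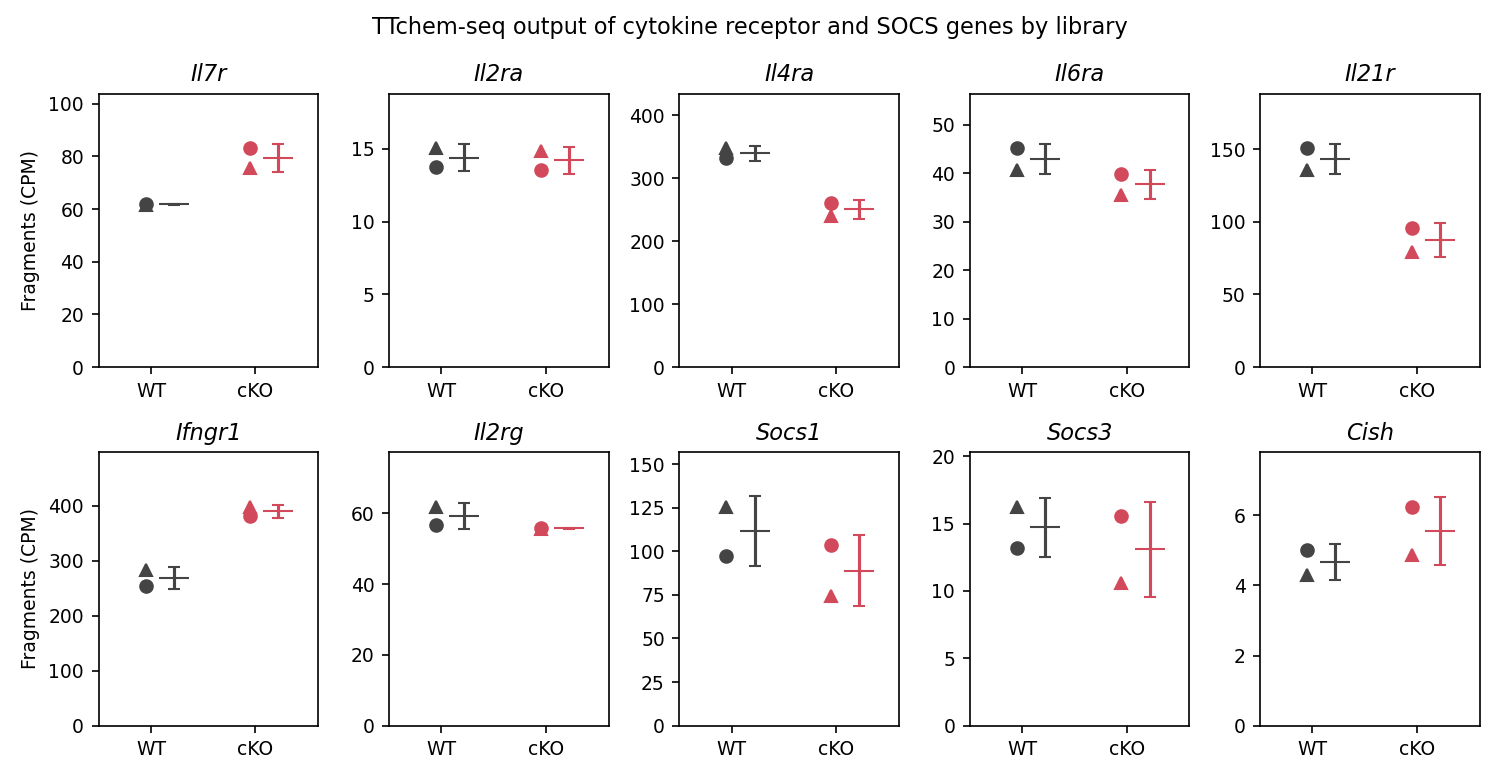
Output of the 10 genes in CPM (y axis, from 0) in the WT (grey) and cKO (red) libraries. Circles are replicate 1, triangles replicate 2, and the bar beside them is the mean ± SD (n = 2). Both cKO libraries lie above both WT libraries for Il7r and Ifngr1, and below them for Il4ra, Il21r, Il6ra and Il2rg.

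The sequence just before the start of transcription is shown for the 4 called receptors and for Socs3, the SOCS gene with a STAT-type motif there. Each is the 250 bases upstream of the RefSeq start, from the GRCm38.p6 build, read 5′ to 3′ on the strand of the gene. The windows are chr15:9529877-9530126 (minus strand) for Il7r, chr10:19591699-19591948 (plus strand) for Ifngr1, chr7:125552021-125552270 (plus strand) for Il4ra, chr7:125603179-125603428 (plus strand) for Il21r and chr11:117969367-117969616 (minus strand) for Socs3. Capitals mark every match, on either strand, to the STAT motif TTCNNNGAA, the RUNX motif TGTGGT, the FOXO motif GTAAACA, the ETS motif CCGGAA or the SP/KLF motif GGGCGG.
Il7r promoter: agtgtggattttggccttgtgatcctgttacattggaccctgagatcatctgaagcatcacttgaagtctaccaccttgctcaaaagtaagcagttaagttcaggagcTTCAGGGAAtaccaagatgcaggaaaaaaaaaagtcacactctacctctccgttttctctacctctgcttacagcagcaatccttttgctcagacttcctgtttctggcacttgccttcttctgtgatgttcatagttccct
Ifngr1 promoter: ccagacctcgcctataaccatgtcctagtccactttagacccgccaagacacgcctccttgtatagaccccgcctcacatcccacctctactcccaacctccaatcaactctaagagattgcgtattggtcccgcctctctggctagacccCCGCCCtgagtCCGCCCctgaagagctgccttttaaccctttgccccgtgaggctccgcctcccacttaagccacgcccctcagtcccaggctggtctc
Il4ra promoter: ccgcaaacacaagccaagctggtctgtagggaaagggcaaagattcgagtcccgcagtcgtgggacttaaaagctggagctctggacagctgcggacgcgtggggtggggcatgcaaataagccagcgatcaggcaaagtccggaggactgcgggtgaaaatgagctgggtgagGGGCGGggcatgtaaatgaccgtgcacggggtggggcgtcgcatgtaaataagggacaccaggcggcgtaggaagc
Il21r promoter: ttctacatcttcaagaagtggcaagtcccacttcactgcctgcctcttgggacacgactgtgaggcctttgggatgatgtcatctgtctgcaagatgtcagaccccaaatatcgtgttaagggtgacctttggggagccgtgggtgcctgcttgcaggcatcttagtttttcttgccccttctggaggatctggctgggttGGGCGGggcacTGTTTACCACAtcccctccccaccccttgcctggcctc
Socs3 promoter: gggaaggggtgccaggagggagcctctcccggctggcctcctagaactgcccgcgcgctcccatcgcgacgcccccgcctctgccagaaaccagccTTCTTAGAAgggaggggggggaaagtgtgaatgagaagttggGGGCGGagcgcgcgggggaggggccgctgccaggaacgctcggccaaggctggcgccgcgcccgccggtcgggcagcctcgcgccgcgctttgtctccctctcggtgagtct
Of all 32851 mouse promoters of the same length, 7.02% held the STAT motif, 14% the RUNX, 3.17% the FOXO, 12% the ETS and 32.7% the SP/KLF motif. The single match of Il7r was to the STAT motif, 142 to 134 bases upstream. Il21r had an SP/KLF match 49 to 44 bases upstream, and a FOXO match (38 to 32) that overlapped a RUNX match (33 to 28), both on the opposite strand. Ifngr1 had 2 SP/KLF matches and Il4ra had 1. Socs3 had a STAT match 154 to 146 bases upstream and an SP/KLF match. Of the genes not printed, Socs1 had 3 ETS and 2 SP/KLF matches, Il2rg a RUNX and an ETS match, Cish 2 SP/KLF matches, and Il2ra and Il6ra none. The 2 higher genes did not share base composition, since the Il7r promoter held 1 CpG at 44.0% GC and that of Ifngr1 held 11 CpG at 59.2% GC (median of all promoters 6 CpG and 52.4% GC). Of the 2 lower genes, the Il4ra promoter held 17 CpG at 59.6% GC and that of Il21r 4 CpG at 55.6% GC. These matches describe letters in a window and were not set against binding data.

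Il7r encodes the alpha chain of the IL-7 receptor, which is silenced as cells enter the DP stage and re-expressed after positive selection. It lies at chr15:9506159-9529876 on the minus strand, and 13.5% of this span is exonic. Its output was 62.0 and 61.7 CPM in the WT libraries and 83.1 and 75.8 CPM in the cKO libraries. Both cKO libraries were above both WT libraries, and the WT pair differed by less than the cKO pair. The log2 fold change was 0.36 (SE 0.0999, DESeq2 adjusted p = 0.0125). The adjusted p was 0.124 with edgeR and 0.120 with limma voom. With any single library left out the gene was not called, at log2 fold changes of 0.30 to 0.42 (DESeq2 adjusted p 0.141 to 0.758).

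Ifngr1 encodes the ligand-binding chain of the interferon-gamma receptor (chr10:19591949-19610227, plus strand, 11.5% exonic). It had 254 and 283 CPM in the WT libraries and 382 and 398 CPM in the cKO libraries, and both cKO libraries were well above both WT libraries. Per library these were 10820 to 15829 fragments. The log2 fold change was 0.54 (SE 0.0826, DESeq2 adjusted p = 3.55e-08), and edgeR called it as well (adjusted p = 0.0417). With each library left out in turn the log2 fold change was 0.45 to 0.62. Ifngr1 was called in 14 of 16 alternative settings, some of which changed only a cutoff on the main fit. The gene for its signalling partner chain, Ifngr2, had 106 and 113 CPM in WT and 148 and 121 CPM in cKO. That difference of 0.29 on the log2 scale (SE 0.106) did not pass the test (DESeq2 adjusted p = 0.0951).

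Il4ra and Il21r lie next to each other on chromosome 7, in the same orientation, with 23954 bp between them. Il4ra (chr7:125552271-125579474, plus strand, 19.2% exonic) encodes the IL-4 receptor alpha chain, which also serves IL-13. It had 332 and 348 CPM in WT and 261 and 240 CPM in cKO, which is -0.44 on the log2 scale (SE 0.0789; DESeq2 adjusted p = 4.1e-06). The edgeR adjusted p was 0.0565 and that of limma voom 0.0424, and without cKO replicate 2 Il4ra was not called (log2 fold change -0.39, DESeq2 adjusted p = 0.0966). Il21r (chr7:125603429-125633570, plus strand, 8.65% exonic) encodes the specific chain of the IL-21 receptor. It had 151 and 136 CPM in WT and 95.7 and 79.0 CPM in cKO, the largest change among the 10 genes. Its log2 fold change of -0.72 (SE 0.106) had a DESeq2 adjusted p of 7.07e-09 and an edgeR adjusted p of 0.0432. Il21r alone of the 10 genes was called in all 16 alternative settings, some of which changed only a cutoff on the main fit. Its log2 fold changes there were -0.85 to -0.59.

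The fall was measured at these 2 genes and not called at the genes beside them. Within 150 kb of the pair, Kdm8, Nsmce1, Gtf3c1 and D430042O09Rik had log2 fold changes of -0.07, 0.32, -0.16 and -0.03 (DESeq2 adjusted p 0.911, 0.329, 0.255 and 0.955). Gtf3c1, which encodes a subunit of the RNA polymerase III factor TFIIIC and ends 7383 bp from Il21r on the other strand, had 363 and 353 CPM in WT and 322 and 320 CPM in cKO. Both of its cKO libraries were lower, by less than those of Il4ra and Il21r. No gene of the annotation overlapped any of the 10 genes. The nearest genes on either side of the other 8 (Capsl and Spef2 at Il7r, Rbm17 and Il15ra at Il2ra, She and Atp8b2 at Il6ra, Gm33104 and Il22ra2 at Ifngr1, Gm614 and Med12 at Il2rg, Clec16a and Tnp2 at Socs1, Tha1 and Pgs1 at Socs3, Mapkapk3 and Hemk1 at Cish) were not called, some of them lying under 1 CPM (DESeq2 adjusted p of at least 0.451 where one was given).

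**Figure D2:**
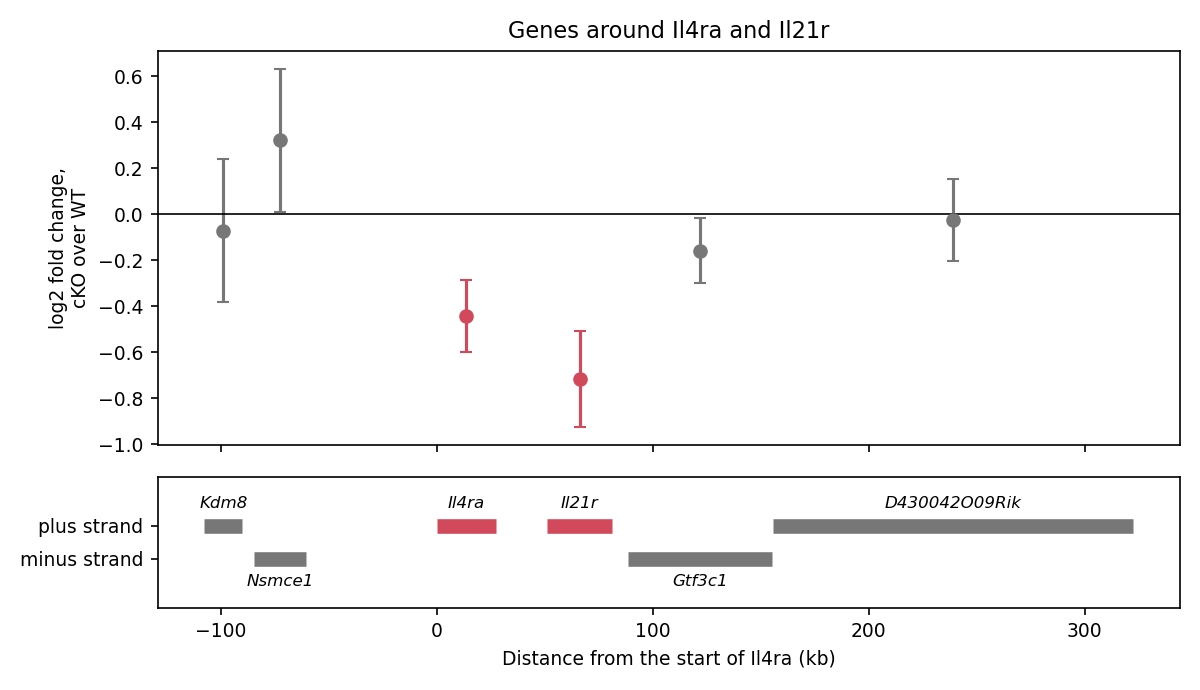
Genes within 150 kb of the Il4ra and Il21r pair. The upper panel gives the log2 fold change, cKO over WT, with its 95% interval, and the lower panel the extent and strand of each gene by distance in kb from the start of Il4ra; red marks genes called by DESeq2. Il4ra and Il21r lie at -0.44 and -0.72, and the 4 flanking genes between -0.16 and 0.32.

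Some markers of mature cells fell together with Il4ra and Il21r, which mature T cells also express. Of the 9 mature SP markers reported here, 3 were called lower, namely Ccr7 (a homing receptor, log2 fold change -0.34), Gimap3 (-0.73) and Gimap6 (-0.29), both GTPase genes of lymphocytes. These were DESeq2 calls, and edgeR and limma voom called 0 of the list (edgeR adjusted p 0.164, 0.122 and 0.197). The summed level of the 9 genes was 689 to 721 CPM in WT and 547 to 636 CPM in cKO (253 to 257 and 217 to 254 CPM for the 6 not called), and the median of their log2 fold changes was -0.29. Both cKO libraries were below both WT libraries in 5 of the 9, the 3 called genes with Klf2 (-0.28) and Itgb7 (-0.37), against 24% of all genes tested, and S1pr1 (-0.03), Ms4a6b (-0.03) and Ms4a4b (0.08) were among the others. The 6 CD4 SP markers summed to 313 to 322 CPM in WT and 268 to 301 CPM in cKO, with 0 called by DESeq2 and edgeR and 1, Itgb2 (-0.21), at an unadjusted p under 0.05 in each. Gata3 of this list had a log2 fold change of 0.06 (DESeq2 adjusted p = 0.895). Il7r, which mature cells express as well, went the other way. Of 12 DP markers, 2 were called lower, Cd8a (-0.54) and the recombinase gene Rag1 (-0.31), again by DESeq2 alone (edgeR adjusted p 0.108 and 0.291). Both cKO libraries were below both WT libraries in these 2 and above in 3, Tcf12 (0.23), Themis (0.19) and Arpp21 (0.18). Tcf12 had a DESeq2 adjusted p of 0.0160 but a change under 1.2-fold. The median of the list was 0.05. It summed to 7543 to 8395 CPM in WT and 8055 to 8526 CPM in cKO. The 10 genes not called summed to 6127 to 6596 CPM in WT and 6870 to 7250 CPM in cKO. The part of mature cells in the results for Il4ra and Il21r was not tested.

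Il2rg, Il2ra and Il6ra were not called. Il2rg had 56.7 and 61.9 CPM in WT and 55.9 and 55.7 CPM in cKO (log2 fold change -0.09, 95% interval -0.30 to 0.12, DESeq2 adjusted p = 0.805). It lies on the X chromosome (chrX:101264385-101268255, minus strand), and WT replicate 1, with the high Xist level, was the lower of the WT libraries. Of its neighbours there, Gm614 was also lower in WT replicate 1 than in WT replicate 2 (13.5 and 14.5 CPM). Med12 was higher (63.0 and 59.6 CPM), and a link to Xist was not tested. The interval of Il2rg reached none of the log2 fold changes of its partner chains Il4ra, Il21r and Il7r, while that of Il2ra (-0.02) lay inside it, and the difference between genes was not tested.

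Il2ra, the CD25 chain that marks DN cells and activated or regulatory T cells, had 13.7 and 15.0 CPM in WT and 13.6 and 14.8 CPM in cKO. Its libraries overlapped, with a log2 fold change of -0.02 (95% interval -0.37 to 0.33, DESeq2 adjusted p = 0.983). Il6ra, the IL-6-binding chain, had 45.2 and 40.7 CPM in WT and 39.8 and 35.6 CPM in cKO. Both cKO libraries were below both WT libraries, but the log2 fold change of -0.19 (95% interval -0.43 to 0.05) did not pass the test (DESeq2 adjusted p = 0.532). In all, cKO libraries were separated upwards from WT in 2 of the 10 genes and downwards in 4, against 24.9% and 24% of the genes tested, and 4 genes overlapped, 48.9% being the background for no overlap.

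The SOCS genes had the widest standard errors of the log2 fold change among the 10 genes. Socs1, the inhibitor of JAK kinases that DP cells are known for, had 97.2 and 126 CPM in WT and 103 and 74.4 CPM in cKO. The groups overlapped, and the log2 fold change of -0.33 had a 95% interval of -0.91 to 0.25 (DESeq2 adjusted p = 0.723). It moved from -0.11 without cKO replicate 2 to -0.58 without cKO replicate 1 (DESeq2 adjusted p = 0.0641), with -0.12 without WT replicate 2 and -0.51 without WT replicate 1. Socs3, which acts on receptors that signal through gp130, had 13.2 and 16.2 CPM in WT and 15.6 and 10.6 CPM in cKO. In both genes cKO replicate 2 was the lowest library and WT replicate 2 the highest. The log2 fold change of Socs3 was -0.17 (95% interval -0.60 to 0.25, DESeq2 adjusted p = 0.817), and without cKO replicate 2 its sign turned (0.07).

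Cish, a STAT5 target whose product binds receptors of the common gamma chain family, had 5.02 and 4.29 CPM in WT and 6.25 and 4.88 CPM in cKO. These came from 194 to 240 fragments per library, the fewest among the 10 genes. The libraries overlapped, and the log2 fold change of 0.25 had a 95% interval of -0.31 to 0.82 (DESeq2 adjusted p = 0.797). The interval did not exclude a change of the size seen for Ifngr1.

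**Figure D3:**
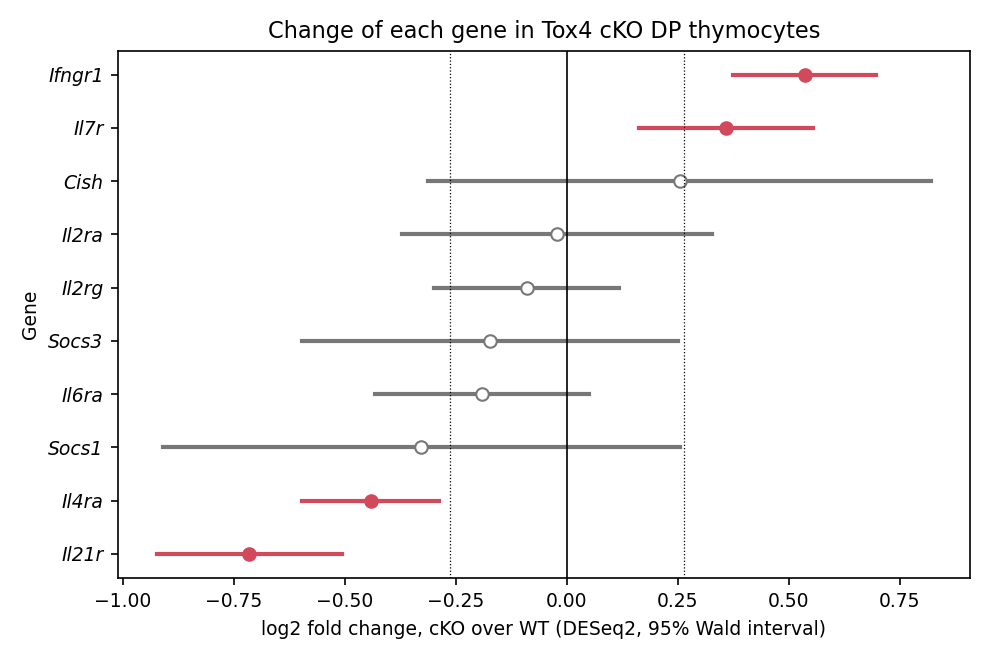
Log2 fold change, cKO over WT, of the 10 genes with 95% Wald intervals from DESeq2; filled red points are called genes, and dotted lines mark a fold change of 1.2 in each direction. Il21r (-0.72), Il4ra (-0.44), Il7r (0.36) and Ifngr1 (0.54) have intervals apart from 0, and the interval of Socs1 runs from -0.91 to 0.25.

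Levels of different genes were compared as CPM per kb of gene span. Exons made up 77.5% of the span of Socs1, 83% of Socs3, 49.2% of Cish and 43% of Il2rg. In the other receptor genes they made up 7.7% to 19.2%. Capture that favours finished mRNA would raise genes with a high exonic share in this order. Levels per kb of exon were not compared. In WT, Socs1 had the highest output, 64.4 ± 11.6 CPM per kb (SD, n = 2) (percentile 99.3 of the genes tested). Il2rg (15.3 CPM per kb) and Ifngr1 (14.7 CPM per kb) followed, with overlapping libraries, and Il4ra stood at 12.5 CPM per kb. Il21r (4.75 CPM per kb) and Socs3 (4.49 CPM per kb) overlapped, and the lowest of the 10 were Il7r (2.61), Il6ra (0.979), Cish (0.760) and Il2ra (0.286 CPM per kb). By the mean over both genotypes, Il7r was still at percentile 72.7 of the genes tested, Il6ra at 37.1 and Cish at 35.0. Thus Il2ra, the CD25 gene that DP cells are known to lack at the surface, was at the low end of the 10 genes and at percentile 17.4 of the genes tested. In cKO, Ifngr1 (21.3 CPM per kb) lay above Il2rg (14.4 CPM per kb) in every library. Il7r (3.35 CPM per kb) lay above Il21r (2.90 CPM per kb) in cKO, the reverse of their order in WT. Socs1 remained highest in both cKO libraries, at 51.5 ± 11.9 CPM per kb (SD, n = 2).

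**Figure D4:**
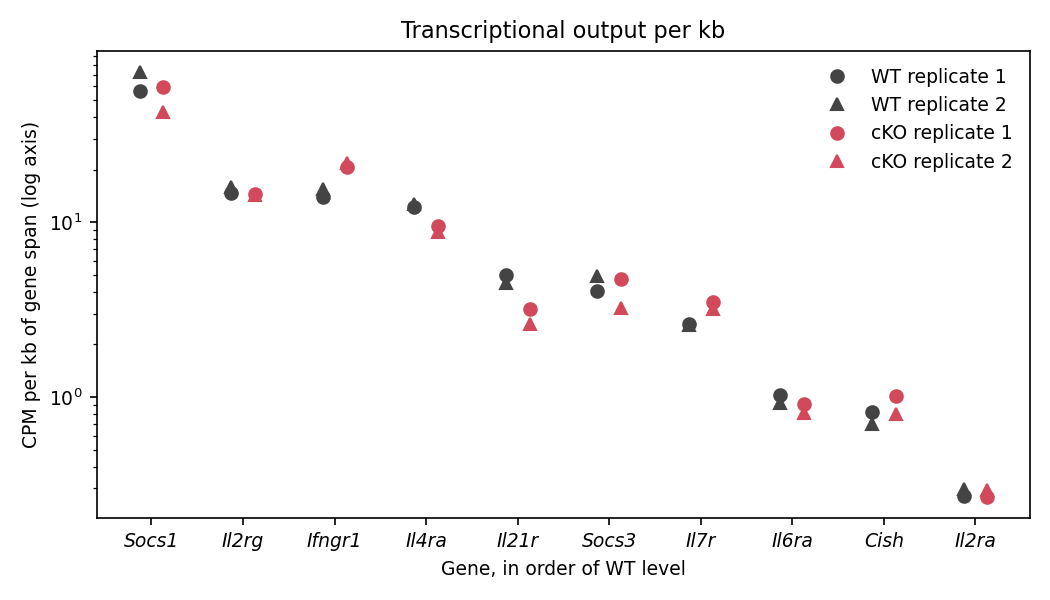
Output in CPM per kb of gene span (log axis) of the 10 genes, in order of their WT mean; circles are replicate 1, triangles replicate 2, grey WT and red cKO. Socs1 is highest and Il2ra lowest in each library, and Il21r and Il7r change places between genotypes.

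Of the other cytokine receptor genes, 23 of 34 had a mean of at least 1 CPM, and 1 was called. It was Il12rb2, which encodes the IL-12 receptor beta 2 chain, with 34.0 and 24.3 CPM in WT and 46.9 and 57.2 CPM in cKO. Its log2 fold change was 0.84 (SE 0.160, DESeq2 adjusted p = 2.36e-05), with an edgeR adjusted p of 0.118. The median log2 fold change of these receptors was -0.12, beside 0.00 over all genes tested. Il6st, which encodes gp130, the partner of the IL-6-binding chain, had a log2 fold change of 0.10 (DESeq2 adjusted p = 0.686). Il2rb, the beta chain for IL-2 and IL-15, had 16.5 and 12.1 CPM in WT and 11.9 and 10.01 CPM in cKO, a difference that did not pass the test (log2 fold change -0.39, DESeq2 adjusted p = 0.400).

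None of the 4 JAK kinase genes and none of the 7 STAT genes was called by DESeq2, with median log2 fold changes of -0.07 and -0.05. Jak1, the kinase bound to the cytokine-specific chains, had the highest counts of the kinases, 1105 and 957 CPM in WT and 1112 and 1056 CPM in cKO. Jak2 had a log2 fold change of 0.03 (DESeq2 adjusted p = 0.949). Jak3, which works with the common gamma chain, was lower in both cKO libraries (10.4 and 9.79 CPM in WT, 6.87 and 7.31 CPM in cKO) without passing the test (log2 fold change -0.51, SE 0.219, DESeq2 adjusted p = 0.211). Stat5b (0.06) and Stat5a (-0.22), whose products carry the IL-7 and IL-2 signals, had DESeq2 adjusted p of 0.822 and 0.165. Stat3 had a log2 fold change of -0.06 (adjusted p = 0.861). At an unadjusted p under 0.05, 1 JAK and 1 STAT gene, Jak3 and Stat5a, were found with DESeq2 and with edgeR, and edgeR called 0 of them after adjustment.

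Negative regulators outside the 10 genes gave 0 calls as well. Of the other SOCS genes, 4 of 5 had a mean of at least 1 CPM, with a median log2 fold change of 0.08 (Socs7 0.11, Socs6 0.01), and Socs2, another STAT5 target, was at 0.0781 to 0.164 CPM in each library. The 11 other inhibitors of the pathway, which include the receptor phosphatase gene Ptprc (CD45, log2 fold change 0.16, DESeq2 adjusted p = 0.174) and Pias1 (-0.05, adjusted p = 0.832), had a median of -0.05. At an unadjusted p under 0.05, 0 of the SOCS genes and 2 of the other inhibitors, Ptprc and Usp18, were found with DESeq2 and with edgeR.

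Among 17 genes known as targets of cytokine signals, 3 were called higher and 0 lower, with a median log2 fold change of -0.07. Bcl2, the survival gene that IL-7 sustains, had 102 CPM in each WT library and 176 and 141 CPM in cKO (log2 fold change 0.64, SE 0.105, DESeq2 adjusted p = 4.01e-07, edgeR adjusted p = 0.0632). Myc, which drives growth, had 6.63 and 9.51 CPM in WT and 14.8 and 13.6 CPM in cKO (log2 fold change 0.81, DESeq2 adjusted p = 0.0103). Bcl6, a repressor induced by IL-6 and IL-21, had 144 and 176 CPM in WT and 208 and 193 CPM in cKO (log2 fold change 0.33, DESeq2 adjusted p = 0.0388). The 3 calls were made by DESeq2 alone: after adjustment edgeR and limma voom called 0 genes of this list, with edgeR adjusted p of 0.150 for Myc and 0.243 for Bcl6. All 3 genes are also known to answer to other signals in thymocytes.

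**Figure D5:**
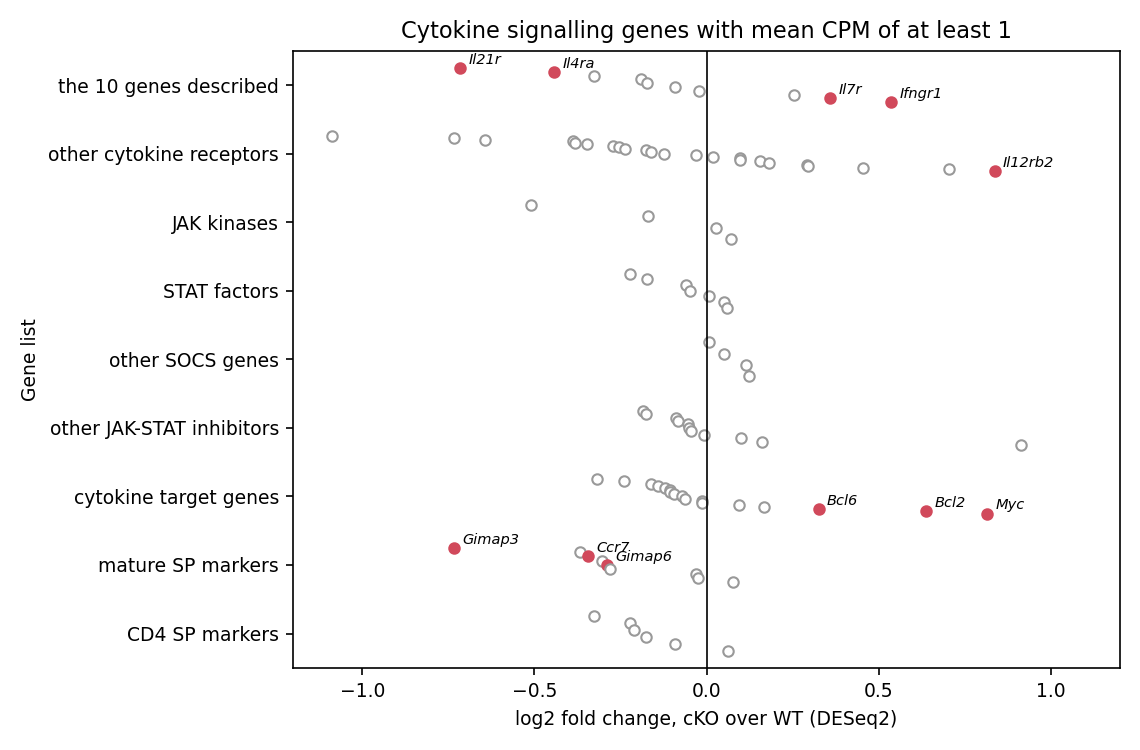
Log2 fold change, cKO over WT, of the genes with a mean of at least 1 CPM in each list of cytokine signalling genes and in 2 lists of mature cell markers; filled red points with names are genes called by DESeq2. No JAK, STAT, SOCS or other inhibitor gene is called, and the called genes of the pathway lists are Il12rb2, Bcl6, Bcl2 and Myc beside the 4 receptors.

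Among the markers of other cells, in the DN list, 1 of 4 genes above the minimum, Notch3, was called (log2 fold change 1.28), and the summed level was 73.0 to 77.4 CPM in WT and 106 to 118 CPM in cKO. The other 6 genes of the list summed to 47.5 to 54.9 CPM in WT and 50.9 to 56.4 CPM in cKO. Of the other 3 above the minimum, which were not called, Dtx1 (log2 fold change 0.27) was higher and Kit (-0.27) lower in both cKO libraries. Cd44 (0.16) had 35.8 and 29.1 CPM in WT and 35.8 and 37.0 CPM in cKO. Il7r and Il2ra are also expressed by DN cells, and Il7r rose while Il2ra did not pass the test. Of the regulatory T cell markers, 1 of 6 was called, Ikzf2 (0.87), and Foxp3, which defines these cells, was at 2.44 and 2.99 CPM in WT and 2.33 and 1.72 CPM in cKO. Both cKO libraries were above both WT libraries in 2 of the 6 and below in 2, against 24.9% and 24% of all genes tested. Of the CD8 SP markers, 2 of 5 had a mean of at least 1 CPM. Runx3 was called higher by DESeq2 (0.42; edgeR adjusted p = 0.103), and Cd7 was not called, at -0.39. B cell and myeloid markers gave 0 calls with DESeq2 and edgeR (of their genes with a mean of at least 1 CPM, 1, Blnk of the B cell list, had an unadjusted p under 0.05 in each), with log2 fold changes of 0.62 for Blnk, 0.13 for Ebf1, 0.34 for Cd68 and -0.85 for Mpeg1, the highest genes of each list, and summed to 18.2 to 25.9 CPM and 11.0 to 13.7 CPM per library. The part of DN cells in the result for Il7r was not tested.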

How the data were processed

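According to the methods, the authors passed TTchem-seq reads through fastp 0.13.1 and mapped them to GRCm38 with STAR 2.7.9a. The labels also name featureCounts 1.6.1. The deposited table held expected counts over whole gene spans, introns included, of which 8.61% were fractional. The methods describe strand-specific libraries and a count matrix built from the gene counts of STAR. How fractions were assigned, and whether counting for the deposited table used strand, is not given in the sources used here. Which purification gave the DP cells for this assay was not described separately. Yeast spike-in RNA was added but not used for scaling.

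Expected counts were rounded to whole numbers. Libraries were grouped by sample title. All 24984 genes were fitted with the DESeq2 1.42.0 Wald test (R 4.3.3, no covariates, unshrunken fold changes, independent filtering at 0.1), with Benjamini-Hochberg adjustment over the table, and genes were called at an adjusted p under 0.05, a fold of at least 1.2 and a mean of at least 1 CPM. Alternatives were edgeR 4.0.16 and limma 3.58.1 (voom). The fits were also run on counts simulated from the DESeq2 fit of these data. Such counts cannot show how the fits handle spread that this model leaves out. Totals of 38429786 to 48690591 fragments, without molecular identifiers, set the counting error. Replicates differed by more than counting noise (chi-square per degree of freedom 40.7 in WT and 30.7 in cKO). Promoters came from RefSeq (GRCm38.p6), where all 10 genes matched.

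The 10 genes, the lists and the tests were chosen with earlier results of these data known. Named were the 10 genes, partners of their receptors (Il2rb, Il6st, Ifngr2, Jak1, Jak3, Stat5a, Stat5b) with Socs2 and Bcl2, neighbouring genes, and from each list the called genes (up to 4) or otherwise the 2 with the highest CPM. Other genes (Usp18, Foxp3, Kit, Dtx1, Cd44, Cd7, Klf2, Itgb7, S1pr1, Ms4a6b, Ms4a4b, Tcf12, Themis, Arpp21) were named after their values were seen. 1 further gene of the mature SP list is not reported here, so the counts and sums of that list are without it.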

Additional observations from a re-analysis of the deposited data

How the results depend on the processing

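The number of the 10 genes called was small enough for single calls to decide it. Of 2 called higher, 1 remained with edgeR, with limma voom, with the replicate block in DESeq2 and with any library left out (1 to 1), and 0 with the replicate block in edgeR or a fold of at least 1.5. Of 2 called lower, 1 remained with edgeR, with the replicate block in edgeR and with a fold of at least 1.5, and 1 to 2 with a library left out (1 without cKO replicate 2). Over all genes, edgeR called 48 higher and 10 lower, limma voom 50 and 11, a fold of at least 1.5 left 106 and 44, the replicate block gave 121 and 72 in DESeq2 and 19 and 9 in edgeR, and leaving out a library gave 61 to 320 higher and 28 to 126 lower. Same-numbered replicates did not deviate together (r = -0.03 over 11625 genes). The paper states that its mice were sex-matched littermates, but not which libraries came from one litter. Whether the replicate block joins such pairs is therefore not known. Il7r was not called with that block in DESeq2 (adjusted p = 0.183) or edgeR (0.186), and Ifngr1 not in edgeR with it (0.0533) or at a fold of at least 1.5. The cause of these differences was not tested. Signs turned only for genes not called: with a library left out, the log2 fold change of Il2ra ran from -0.094 to 0.050 (positive without WT replicate 2 and without cKO replicate 1) and that of Socs3 from -0.47 to 0.075 (positive without cKO replicate 2). The direction of Il7r, Ifngr1, Il4ra and Il21r was the same in all 16 alternatives. Other size factors, filters on low counts, independent filtering off and rounding down left the calls of the 10 genes as they were. Where a library was left out, the lone library was assumed to vary like the other group. With 2 libraries a genotype, the interval of each SOCS gene was wider than that of any receptor among the 10.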
